A study of Mus musculus with 18 samples.

Results

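The insulin-like growth factor (IGF) axis was examined in 18 RNA-seq libraries of mouse embryonic fibroblasts (MEFs). Its 9 genes were chosen by name: the ligand Igf1, the 6 binding proteins Igfbp2 to Igfbp7, and the receptors Igf1r and Insr. They are 9 of the 55401 gene identifiers in the count table, and all 9 passed the filter on low counts in both experiments. MEFs are primary cells grown from mouse embryos, here without head and viscera, so a culture can hold several cell types. In the S6K1 series, the groups were S6K1 WT cells with an empty vector (WT EV), S6K1 WT cells with constitutive RAS expression (WT RAS) and S6K1 KO cells with RAS (KO RAS). In the S6K1/S6K2 series, they were S6K1/S6K2 WT cells with EV, the same genotype with RAS, and S6K1/S6K2 DKO cells with RAS (DKO RAS). Each group had 3 libraries. EV and RAS were delivered by retrovirus and all cells, EV included, had been drug-selected. The RAS vector carried an oncogenic HRAS, which drives fibroblasts into senescence. Per the study's methods, S6K1 WT and KO embryos were littermates, whereas DKO embryos and their WT controls came from different breedings. Cells without S6K were analysed here only with RAS, so the effect of S6K loss was measured only with RAS present.

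IGF1 is a secreted growth factor that signals through the receptor tyrosine kinase IGF1R, and at lower affinity through the insulin receptor INSR, to PI3K, AKT, mTORC1 and the S6 kinases. IGF-binding proteins hold IGFs outside the cell, which can block receptor access or extend the life of the ligand, and some of them act without binding IGF. In fibroblasts, IGFBP3, IGFBP4, IGFBP5 and IGFBP7 are known as secreted factors that are linked with senescence. S6K1 and S6K2 are encoded by Rps6kb1 and Rps6kb2 and act downstream of the receptors.

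Library totals were between 8319445 and 14402442 counts, and no replicate pair agreed within sampling noise. The targeted genes followed the labels. In the S6K1 series, Rps6kb1 was between 23.6 and 37.0 CPM (counts scaled by effective library size) in KO RAS and between 61.6 and 74.6 CPM in WT RAS, a log2 fold change of -1.17 ± 0.17 (SE) with an adjusted p of 0.234, and of 0.000101 with the replicate number as a block. With both kinases targeted, Rps6kb1 was between 34.5 and 39.7 CPM in DKO RAS against 75.5 to 83.7 CPM in WT RAS (adjusted p = 0.00908). Rps6kb2 was between 2.68 and 3.04 CPM against 24.1 to 28.9 CPM (adjusted p = 7.44e-05). All 9 fibroblast markers were detected, and their summed level was between 29979 and 47779 CPM in the 6 EV libraries and between 13235 and 17978 CPM in the 12 RAS libraries. Cells of other types also left RNA in the libraries, and these levels are given beside the results they move with.

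To compare the members with each other, levels were divided by exon length (CPM per kilobase). In WT EV of the S6K1 series, the order was Igfbp7 (470.1 ± 60.7 CPM per kilobase, SD, n = 3), Igfbp3 (253 ± 119), Igfbp5 (121 ± 34.9), Igfbp4 (66.6 ± 22.9), Igf1r (45.9 ± 4.49), Igfbp6 (32.7 ± 11.0), Igfbp2 (12.0 ± 1.10), Igf1 (11.1 ± 3.92) and Insr (7.98 ± 1.54). Only Igfbp7 and Igfbp3, Igfbp3 and Igfbp5, and Igfbp6 and Igfbp2 were neighbours whose libraries did not overlap. In the WT EV cells of the S6K1/S6K2 series, Igfbp3 came first at 597 ± 58.0 CPM per kilobase, followed by Igfbp4 at 408 ± 304 and Igfbp7 at 331 ± 170. The ranges of those 3 neighbours overlapped.

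In the 4 RAS groups, Igfbp3, Igfbp4 and Igfbp7 held the first 3 ranks in varying order, and Igf1r had rank 4. Igfbp5, which had rank 3 or 4 in the EV groups, had rank 5 or 6 in the RAS groups. Igf1 had the lowest mean of the 9 genes in all 4 RAS groups. It was between 2.05 ± 0.734 CPM per kilobase in KO RAS and 4.58 ± 1.97 in WT RAS of the S6K1 series. Only in KO RAS did its libraries not overlap with those of the next gene. In WT RAS of the S6K1/S6K2 series Igfbp2 was at 3.27 ± 3.10 and Igf1 at 3.20 ± 0.701. Exon length was taken over all annotated transcripts, so a gene with long untranslated exons, as Igf1 has, is set low on this scale. Conversely, a gene whose exons are incomplete in the NCBIM37 annotation used is set high. Igf1r had 4476 bases there, and its rank depends on that length.

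**Figure D1:**
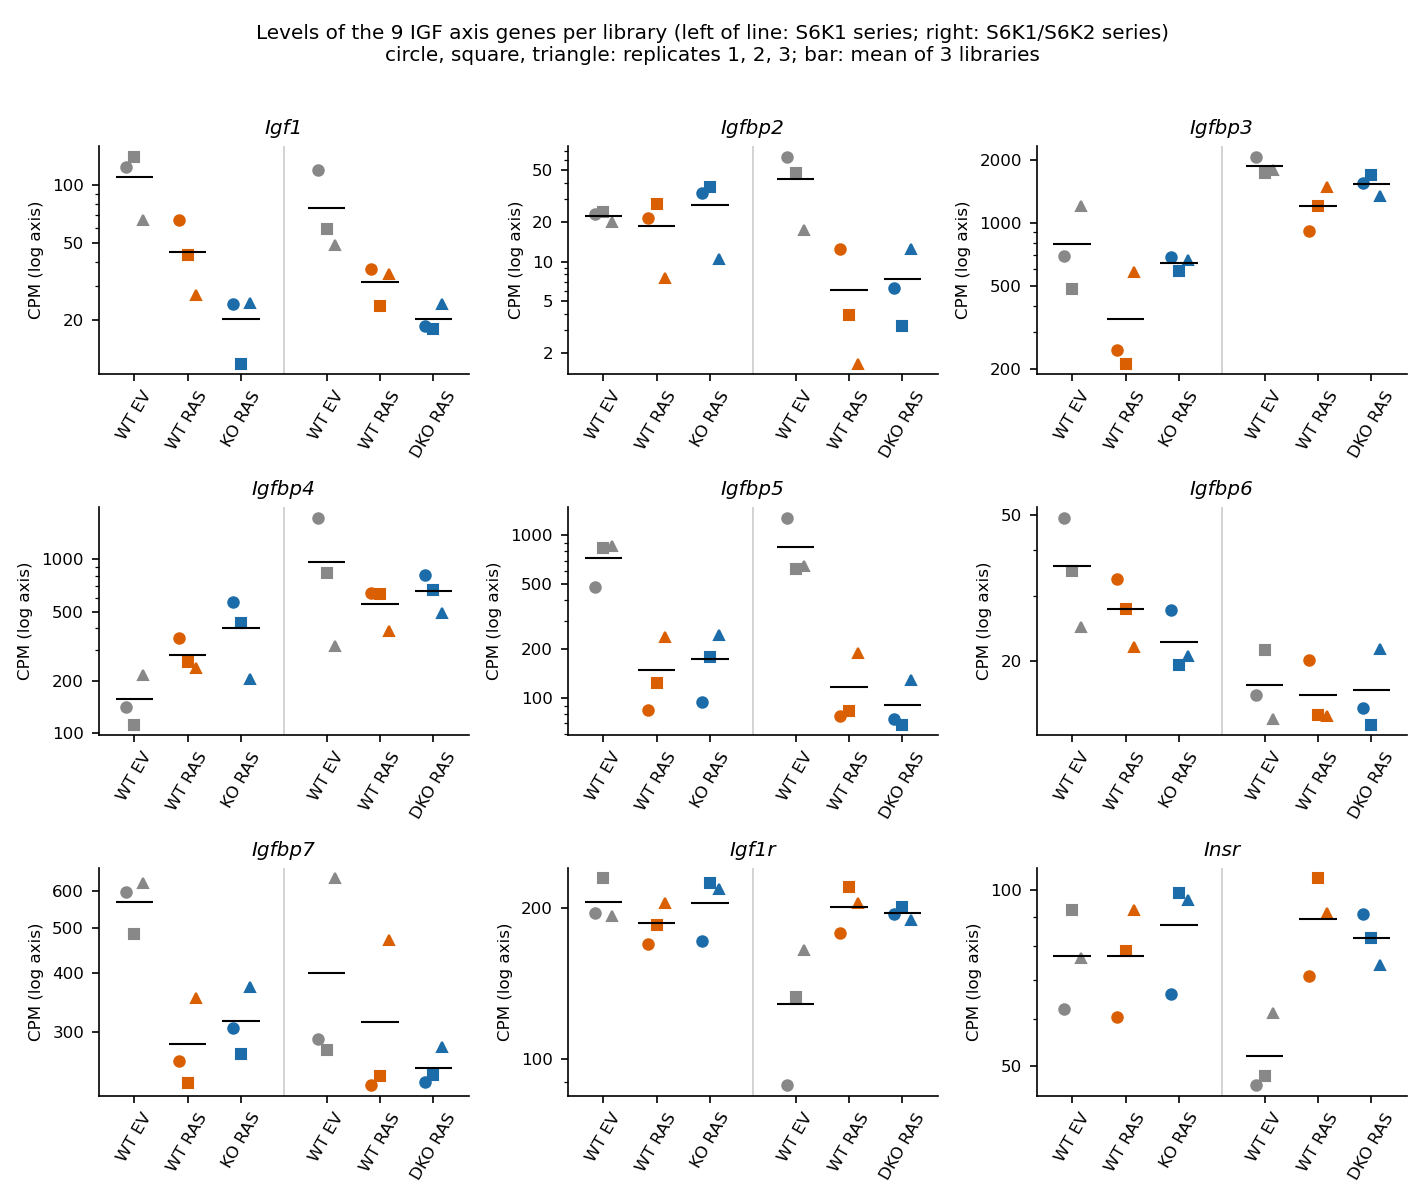
CPM per library (log axis) of the 9 genes in the 6 groups, with the S6K1 series left and the S6K1/S6K2 series right of each line. Circles, squares and triangles are replicates 1, 2 and 3 and bars are means of 3 libraries. Igfbp5 is lower in every RAS library than in every EV library of its series.

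Several secreted members of the axis were lower with RAS, and both receptors were higher with RAS in 1 of the series. In the S6K1 series, 2 of the 9 members differed between WT RAS and WT EV at an adjusted p under 0.05, against 13.2% of all 14036 genes tested. Both were lower, Igfbp5 and Igfbp7, where 6.09% of all genes were called lower. In the S6K1/S6K2 series, 6 of 9 were called, against 26.3% of 13881 genes. Igfbp2, Igfbp3, Igfbp5 and Igf1 were lower (12.7% of all genes) and Igf1r and Insr were higher (13.5% of all genes). The median log2 fold change of the 9 members was -0.40 in the S6K1 series and -0.64 in the S6K1/S6K2 series, while that of all genes was 0.00184 and -0.02. In CPM, 4 members of the S6K1 series and 6 of the S6K1/S6K2 series had groups that did not overlap, against 30.9% and 42.5% of all genes.

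Igf1, the ligand, was at 124, 141 and 66.5 CPM in WT EV replicates 1, 2 and 3 of the S6K1 series and at 65.8, 43.5 and 26.9 CPM in WT RAS, by the same numbers. Every RAS library lay below every EV library. The log2 fold change was -1.28 ± 0.40 (SE), with an adjusted p of 0.0663, and with the replicate block the adjusted p was 0.00788. It was also under 0.05 when either WT EV replicate 3 (0.04041) or WT RAS replicate 1 (0.04827) was left out. In S6K1/S6K2 WT cells, Igf1 was at 120.2, 59.3 and 49.1 CPM in WT EV and at 36.7, 23.8 and 34.7 CPM in WT RAS. The groups again did not overlap, and the log2 fold change was -1.26 ± 0.32 (adjusted p = 0.0174), a level 2.40-fold lower. Without WT RAS replicate 2 the adjusted p was 0.07201, and without WT EV replicate 1, the library with the highest Igf1, the log2 fold change was -0.77.

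Macrophages make much Igf1, and all 13 macrophage markers listed were detected, with none at 0 throughout a group. Their summed level was 3193, 2411 and 641 CPM in WT EV and 3723, 3351 and 731 CPM in WT RAS of the S6K1 series. It was 1406, 159 and 205 CPM in WT EV and 1021, 177 and 257 CPM in WT RAS of the S6K1/S6K2 series. The sum was higher with RAS in 5 of the 6 pairs of libraries with the same number, while Igf1 was lower in all 6. That count rested on Lyz2, a lysozyme and the most abundant marker. The other 12 markers together, a sum chosen after the values were seen, were at 1664, 1284 and 348 CPM in WT EV and 1858, 1541 and 336 CPM in WT RAS of the S6K1 series, and at 804, 79.3 and 111 CPM and 471, 73.5 and 101 CPM in the S6K1/S6K2 series. Without Lyz2 the sum was thus higher with RAS in 2 of the 6 pairs. Taken singly, the markers moved in both directions: Itgam and Cd14 were higher with RAS in all 6 pairs, while Adgre1, Csf1r and Ptprc, genes of the macrophage or leukocyte surface, were lower in all 6. Over the 18 libraries, each less the mean of its series, Igf1 and the macrophage sum had a Pearson r of 0.650 and a Spearman rho of 0.579, as log2 CPM. The points share lines and series, so this is a description, and the part of macrophage RNA in the Igf1 result was not tested beyond these values. In these bulk libraries, fewer cells of a type and less RNA per cell cannot be told apart.

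**Figure D2:**
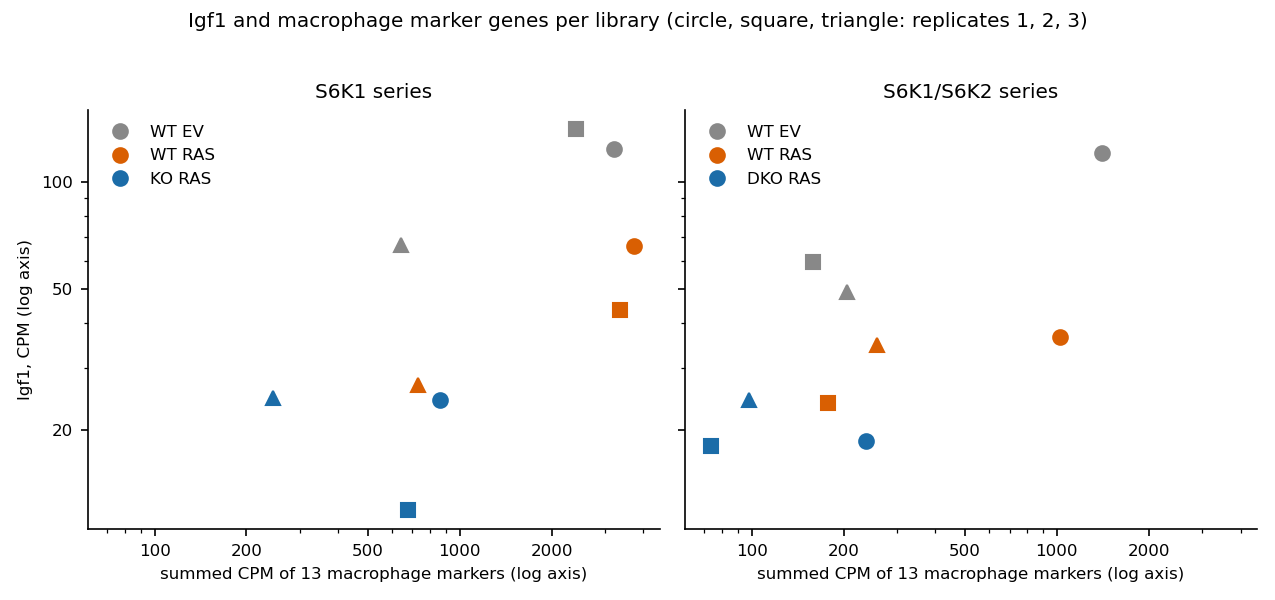
Igf1 in CPM against the summed CPM of 13 macrophage marker genes, both on log axes, for each library of the S6K1 series (left) and the S6K1/S6K2 series (right). Igf1 is lower with RAS than with EV in all 6 WT lines, while the macrophage sum is higher with RAS in 5 of them (in 2 when Lyz2 is left out of the sum), and no KO or DKO library exceeds 24.7 CPM of Igf1.

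Igfbp5, an IGF-binding protein that is kept in the extracellular matrix, was lower with RAS in every line of both series. The S6K1 series had 483, 831 and 859 CPM in WT EV and 84.3, 124 and 236 CPM in WT RAS. The S6K1/S6K2 series had 1286, 621 and 650.0 CPM in WT EV and 77.7, 83.5 and 188 CPM in WT RAS. In neither series did the groups overlap, and each WT line had less Igfbp5 with RAS, by between 1.79 and 4.05 on the log2 scale. The log2 fold changes were -2.29 ± 0.45 (adjusted p = 0.00978) and -2.87 ± 0.44 (adjusted p = 0.00179), which are levels 4.89-fold and 7.31-fold lower. The adjusted p of the S6K1 series was 0.05025 without WT RAS replicate 2. The call of the S6K1/S6K2 series held without any 1 of the 6 libraries.

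Igfbp7, which binds IGFs weakly and is known for restraining growth in RAF-driven senescence, was at 598, 487 and 626 CPM in WT EV and at 259, 233 and 354 CPM in WT RAS of the S6K1 series. The groups did not overlap, and Igfbp7 was 2.02-fold lower with RAS (log2 fold change -1.02 ± 0.19, adjusted p = 0.00808). This call held without any 1 of the 6 libraries. Of the S6K1/S6K2 series, 1 WT line stood apart from the others at 639 CPM with EV and 471 CPM with RAS. The other 2 lines were at 289.6 and 275 CPM with EV and at 230.3 and 241 CPM with RAS. Igfbp7 was lower with RAS in each line, but the groups overlapped and the difference of -0.35 ± 0.36 did not pass the test (adjusted p = 0.492).

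Igfbp3, the main carrier of IGFs in blood, was at 690.0, 482 and 1207 CPM in WT EV and at 247, 211 and 582 CPM in WT RAS of the S6K1 series. WT RAS replicate 3 lay above WT EV replicate 2, so the groups overlapped, although each line had less Igfbp3 with RAS, by between 1.05 and 1.48 on the log2 scale. The log2 fold change was -1.19 ± 0.42 (adjusted p = 0.0982), and with the replicate block the adjusted p was 0.00221. Without WT RAS replicate 3 the log2 fold change was -1.79 (adjusted p = 0.01103). The Igfbp3 level of the S6K1/S6K2 series was at 2076, 1735 and 1796 CPM in WT EV and at 913, 1199 and 1491 CPM in WT RAS, without overlap. The log2 fold change was -0.64 ± 0.20 (adjusted p = 0.0403), and the adjusted p was 0.0616 with the block. In this series the block also joined DKO to WT libraries by number, though they came from different breedings. The call without the block held in 1 of the 6 fits that left out 1 library, the one without WT RAS replicate 3. The adjusted p of the others was between 0.05609 and 0.116.

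Igfbp2 had the largest estimated difference between the series, which did not pass the test. Levels in the S6K1 series were 23.0, 23.7 and 19.9 CPM in WT EV and 21.3, 27.5 and 7.55 CPM in WT RAS. The groups overlapped and the difference of -0.24 ± 0.51 did not pass the test (adjusted p = 0.805). Its level in the S6K1/S6K2 series was 63.1, 47.7 and 17.6 CPM in WT EV and 12.5, 3.93 and 1.67 CPM in WT RAS, where the counts were 116, 33 and 18. There each RAS library lay below each EV library, and the level was 7.11-fold lower (log2 fold change -2.83 ± 0.73, adjusted p = 0.0194). The adjusted p was above 0.05 when WT EV replicate 2 (0.05133), WT RAS replicate 2 (0.07885) or WT RAS replicate 3 (0.05763) was left out, and leaving out WT RAS replicate 1 gave a log2 fold change of -3.96. The difference of the RAS effects between the series was -2.61 ± 0.95, with an unadjusted p of 0.0144 and an adjusted p of 0.315.

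Igfbp4, which inhibits IGF action and is cleaved by pappalysins, had fold changes of opposite sign in the 2 series. Its level was 142, 112 and 217 CPM in WT EV and 354, 256 and 237 CPM in WT RAS of the S6K1 series, without overlap (log2 fold change 0.84 ± 0.37, adjusted p = 0.179). Levels in the S6K1/S6K2 series were 1736, 838 and 317 CPM in WT EV and 639, 634 and 387 CPM in WT RAS (log2 fold change -0.80 ± 0.49, adjusted p = 0.253). There the EV lines spread more widely than the RAS lines, and the third line had more Igfbp4 with RAS. Neither difference passed the test with all libraries, and without WT EV replicate 3 of the S6K1/S6K2 series the log2 fold change was -1.21 with an adjusted p of 0.02828. The difference between the 2 RAS effects was -1.66 ± 0.67, with an unadjusted p of 0.025 and an adjusted p of 0.344.

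Igfbp6, which prefers IGF2 over IGF1, was a low member with small differences. It was between 24.7 and 49.1 CPM in WT EV and between 21.9 and 33.4 CPM in WT RAS of the S6K1 series. The difference was -0.40 ± 0.26 (adjusted p = 0.380), and with the block it was -0.37 with an adjusted p of 0.0373. The ranges of the S6K1/S6K2 series were 13.9 to 21.4 CPM and 14.1 to 20.1 CPM, a difference of -0.09 ± 0.25 (adjusted p = 0.823).

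The receptors moved in the S6K1/S6K2 series. Igf1r was at 88.5, 133 and 165 CPM in WT EV and at 178, 219 and 204 CPM in WT RAS, without overlap and 1.56-fold higher with RAS (log2 fold change 0.64 ± 0.20, adjusted p = 0.0396). Insr was at 46.3, 48.1 and 61.5 CPM in WT EV and at 71.2, 105 and 91.3 CPM in WT RAS, also without overlap and 1.71-fold higher (log2 fold change 0.78 ± 0.17, adjusted p = 0.00951). Both receptors were higher with RAS in each of the 3 lines. The Insr call held without any 1 of the 6 libraries. That of Igf1r was lost without WT EV replicate 1 (adjusted p = 0.05834), WT EV replicate 2 (0.09473), WT RAS replicate 2 (0.1242) or WT RAS replicate 3 (0.1031).

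Neither receptor passed the test in the S6K1 series. Igf1r was at 196, 229 and 192 CPM in WT EV and at 169, 185 and 205 CPM in WT RAS (log2 fold change -0.14 ± 0.14, adjusted p = 0.563). Insr had the same mean of 77.2 CPM in both groups, with a 95% confidence interval of the log2 fold change from -0.48 to 0.48. The differences of the RAS effects between the series were 0.77 ± 0.25 for Igf1r (unadjusted p = 0.00749, adjusted p = 0.277) and 0.77 ± 0.29 for Insr (unadjusted p = 0.0161, adjusted p = 0.318). In edgeR's test of that difference 0 of the 9 members were called, as were 0% of all 14483 genes. At an unadjusted p under 0.05 there were 4 members, against 1819 of the 14483 genes. DESeq2 also called 0 members, against 143 of all genes. Without WT EV replicate 3 of the S6K1/S6K2 series 1 member was called, Igf1r (0.99, adjusted p = 0.04108). A batch that differed between the series cannot be told apart from them in this contrast.

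With the replicate number as a block, 5 members were called lower with RAS in the S6K1 series: Igfbp3, Igfbp5, Igfbp6, Igfbp7 and Igf1. With that block 36.2% of all genes were called. Without the block, 1 member was called when WT RAS replicate 2 was left out. The count of 6 in the S6K1/S6K2 series fell to 3 when WT EV replicate 2 was left out and to 2 when WT RAS replicate 2 was.

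**Figure D3:**
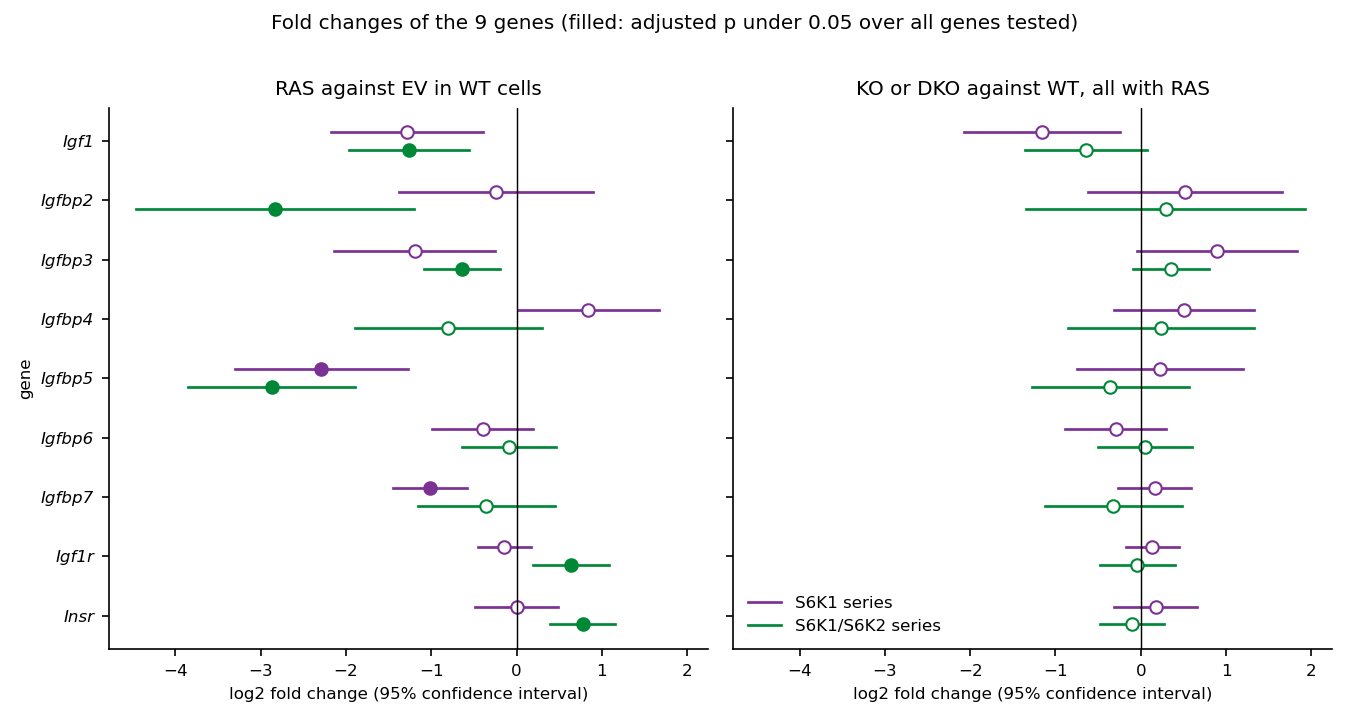
Log2 fold changes of the 9 genes with 95% confidence intervals, for RAS against EV in WT cells (left) and for KO or DKO against WT with RAS (right), in the S6K1 series (purple) and the S6K1/S6K2 series (green). Filled points have an adjusted p under 0.05 over all genes tested, and no point on the right is filled.

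The levels of other marker lists also differed between EV and RAS libraries, and their part in these results was not tested. The summed fibroblast markers, given above, did not overlap between EV and RAS libraries, but the 9 genes moved in both directions. The collagens Col1a1, Col1a2 and Col3a1, which made up most of the EV sum, were lower with RAS in all 6 WT pairs, with Col1a1 at a mean of 12125 CPM in WT EV and 3242 CPM in WT RAS of the S6K1 series and of 13824 and 3326 CPM in the S6K1/S6K2 series. Pdgfrb and S100a4 were also lower with RAS in all 6 pairs. Pdgfra was higher with RAS in all 6 pairs, and Vim, Thy1 and Dcn in 5 of 6. The 6 epithelial markers together were between 1.33 and 10.2 CPM in the EV libraries and between 58.7 and 167 CPM in the RAS libraries, mainly through Krt18. The 6 neural markers were between 58.2 and 102 CPM with EV and between 11.6 and 25.6 CPM with RAS. The 6 chondrocyte markers of the S6K1/S6K2 series were between 54.0 and 94.3 CPM with EV and between 19.8 and 27.9 CPM with RAS. Those of the S6K1 series overlapped, at 17.7 to 27.8 CPM with EV and 19.6 to 27.8 CPM with RAS. The fall in the S6K1/S6K2 series was mainly in Comp, at a mean of 40.0 CPM in WT EV and 0.258 CPM in WT RAS. Sox9 of that series was at 19.5, 14.8 and 11.7 CPM in WT EV and 23.6, 22.3 and 19.2 CPM in WT RAS. The 8 endothelial markers did not exceed 16.3 CPM in sum, and the 7 skeletal muscle markers were between 4.37 and 27.4 CPM with the regulators Myod1 and Myf5 at 0 in every library. The 6 adipocyte markers were between 21.5 and 48.7 CPM in the RAS libraries and between 30.3 and 222 CPM in the EV libraries. The 222 CPM was WT EV replicate 1 of the S6K1/S6K2 series, with Lpl at 203 CPM, and the next highest EV library was at 91.2 CPM. Adipoq, Plin1 and Cfd had no more than 3 counts in any library.

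Summed over the 6 binding proteins, the level per kilobase was 955 ± 196 CPM in WT EV and 522 ± 108 CPM in WT RAS of the S6K1 series, and 1516 ± 334 CPM and 914 ± 145 CPM in the S6K1/S6K2 series. In both series the summed EV and RAS levels did not overlap. The make-up shifted too. Igfbp5 made up 12.9 ± 4.42% of the sum in WT EV and 4.59 ± 1.67% in WT RAS of the S6K1 series, and 9.09 ± 1.90% and 2.05 ± 0.756% in the S6K1/S6K2 series. The share of Igfbp4 was 6.85 ± 0.926% in WT EV and 23.7 ± 7.34% in WT RAS of the S6K1 series, whereas it was 25.4 ± 14.6% and 26.7 ± 10.1% in the S6K1/S6K2 series. Igfbp3 and Igfbp7 made up most of the remainder in all groups. These sums and shares were not tested.

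**Figure D4:**
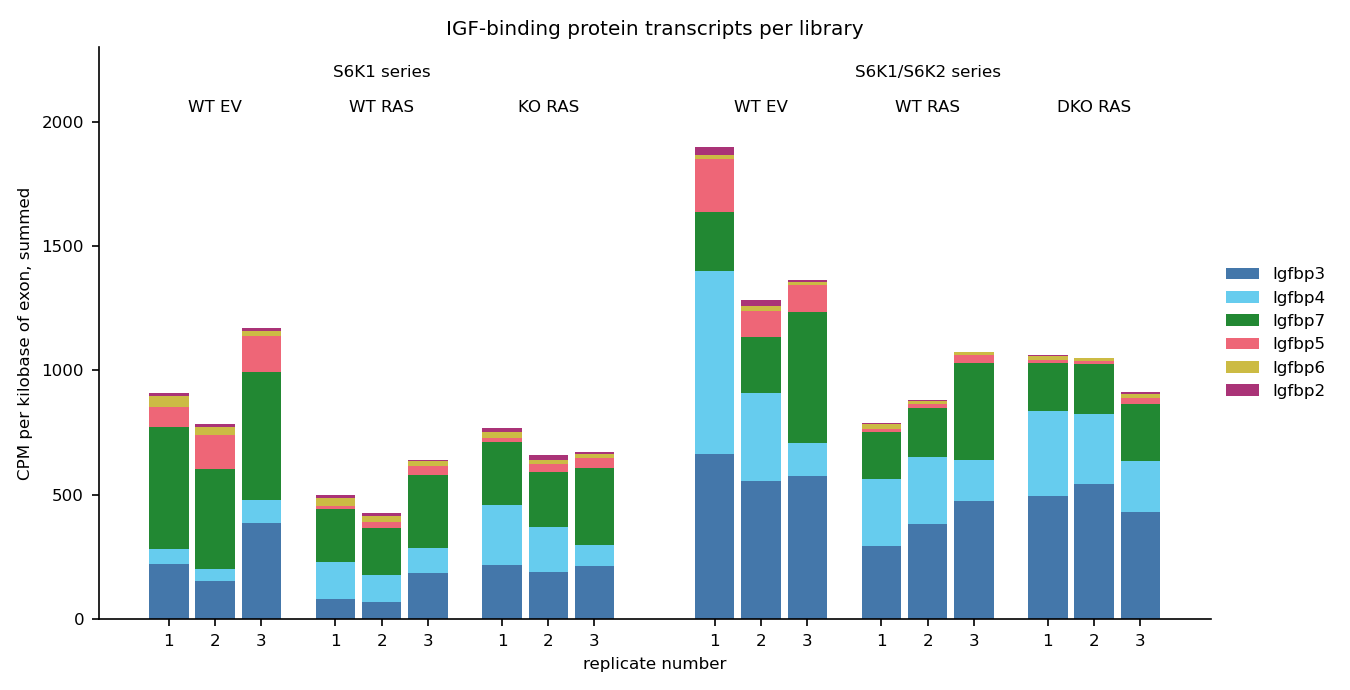
Stacked bars of the 6 binding protein transcripts in CPM per kilobase of exon for each of the 18 libraries, by group and replicate number. The sum is lower with RAS than with EV in both series, and the Igfbp5 segment is smaller in every RAS library than in every EV library of its series.

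Igfbp2 and Igfbp5 lie 5.6 kb apart on chromosome 1 (chr1:72824480-72852474 and chr1:72858065-72874865, GRCm38.p6), on opposite strands and ending towards each other. Igfbp5 fell in both series, and Igfbp2 fell in the S6K1/S6K2 series. Igfbp3 (chr11:7206086-7215498) lies 3.5 kb from Igfbp1 (chr11:7197787-7202546), whose product is made mainly in liver. Igfbp1 had 1 count in 1 library and 0 in the other 17, where the floor of 3 counts was between 0.208 and 0.361 CPM.

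The 250 bases before the start sites were searched on both strands for the letters TGANTCA (AP-1 type) and GTAAACA (forkhead type). N stands for any base, so TGANTCA is a wider form than any 1 site. AP-1 lies downstream of RAS and forkhead factors of the FoxO type lie downstream of IGF receptors. RefSeq (GRCm38.p6) gave 9 windows for 8 of the 9 genes, all but Insr. The AP-1 type letters occurred in 2 windows, 1 of Igf1 and 1 of Igfbp2, and in 6.75% of 32851 windows of all genes. The forkhead form occurred in 0 of the 9 windows and in 3.17% of all windows. In Igf1 (chr10:87860861-87861110, plus strand) the letters were TGAATCA, 37 bases before the start, and all 250 bases of that window lie within longer annotated transcripts of the gene. In Igfbp2 they were TGAGTCA, 39 bases before an inner start (chr1:72825137-72825386, plus strand), in a window of which 65 bases lie within a transcript. The windows before the outer start of Igfbp2 (chr1:72824230-72824479, plus strand) and before Igfbp5 (chr1:72874866-72875115, minus strand) lie outside the annotated transcripts. They are printed since these neighbours had the largest falls with RAS among the members, with log2 fold changes of -2.83 and -2.87 in the S6K1/S6K2 series. Both are written 5′ to 3′ on the strand of the gene, in lower case throughout since neither form occurs in them.
Igfbp2: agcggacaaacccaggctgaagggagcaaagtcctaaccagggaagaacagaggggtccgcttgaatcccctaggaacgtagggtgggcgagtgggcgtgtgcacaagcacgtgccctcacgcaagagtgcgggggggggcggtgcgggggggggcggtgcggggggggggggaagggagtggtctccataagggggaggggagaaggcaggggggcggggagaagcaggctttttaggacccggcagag
Igfbp5: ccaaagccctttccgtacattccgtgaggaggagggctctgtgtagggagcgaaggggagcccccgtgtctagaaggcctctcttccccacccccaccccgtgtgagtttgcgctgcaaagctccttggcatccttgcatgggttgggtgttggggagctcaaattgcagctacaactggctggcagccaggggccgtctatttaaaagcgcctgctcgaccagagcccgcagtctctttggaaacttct
GC content was 67.2% in the Igfbp2 window and 58.8% in that of Igfbp5. A match of letters describes a window, and no binding was measured.

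The question of what S6K loss does to the axis was addressed by KO RAS against WT RAS and by DKO RAS against WT RAS. In edgeR's test 0 of the 9 members were called in either comparison, where 0.00712% and 0.0216% of all genes were called. In the S6K1 series this test did not call the targeted gene Rps6kb1 either (adjusted p = 0.234). The absence of calls there thus does not show an absence of change. At an unadjusted p under 0.05 there was 1 member in the S6K1 series, Igf1, against 963 of 14036 genes. There were 0 members in the S6K1/S6K2 series, against 179 of 13881 genes. DESeq2 called 0 members in both, against 63 and 10 of all genes. In CPM, 2 members had groups without overlap in the S6K1 series, Igf1 and Igfbp3, and 0 had in the S6K1/S6K2 series, against 8.02% and 6.07% of all genes.

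Igf1 was at 65.8, 43.5 and 26.9 CPM in WT RAS and at 24.4, 12.0 and 24.7 CPM in KO RAS of the S6K1 series, 2.23-fold lower. All KO libraries lay below all WT libraries, with a log2 fold change of -1.16 ± 0.40 (unadjusted p = 0.018, adjusted p = 0.587). By replicate number, the differences were -1.43, -1.86 and -0.12 on the log2 scale, so the third pair hardly differed. The macrophage sum was 3723, 3351 and 731 CPM in WT RAS and 861, 676 and 245 CPM in KO RAS, lower in each pair, and its part in the Igf1 difference was not tested. Igf1 of the S6K1/S6K2 series was at 36.7, 23.8 and 34.7 CPM in WT RAS and at 18.7, 18.05 and 24.4 CPM in DKO RAS. The log2 fold change was -0.64 ± 0.32 (unadjusted p = 0.0748, adjusted p = 1.000), with a 95% confidence interval from -1.36 to 0.08. There the macrophage sum was 1021, 177 and 257 CPM in WT RAS and 237, 73.6 and 97.7 CPM in DKO RAS.

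Igfbp3 was at 247, 211 and 582 CPM in WT RAS and at 686, 587 and 663 CPM in KO RAS of the S6K1 series. Each KO library exceeded each WT library, while the KO libraries lay much closer together than the WT libraries. The log2 fold change was 0.90 ± 0.42 (adjusted p = 0.769). S6K1 WT and KO embryos were littermates, but the labels do not say that libraries with the same number are. With the replicate number as a block, the log2 fold change was 1.07 with an adjusted p of 0.0272. Igfbp3 was then the 1 member called, against 4.15% of all genes with that block. The pairs differed by 1.47, 1.47 and 0.19 on the log2 scale. Igfbp3 of the S6K1/S6K2 series was at 913, 1199 and 1491 CPM in WT RAS and at 1553, 1702 and 1342 CPM in DKO RAS, with overlap (log2 fold change 0.35 ± 0.20, adjusted p = 1.000).

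The remaining members did not pass the test. In KO RAS against WT RAS the log2 fold changes were 0.52 ± 0.51 for Igfbp2, 0.51 ± 0.36 for Igfbp4, 0.23 ± 0.43 for Igfbp5, -0.29 ± 0.26 for Igfbp6 and 0.16 ± 0.19 for Igfbp7. In DKO RAS against WT RAS they were 0.29 ± 0.73, 0.24 ± 0.49, -0.36 ± 0.41, 0.04 ± 0.25 and -0.32 ± 0.36 in the same order.

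Igfbp5 was at 94.6, 180.1 and 246 CPM in KO RAS and 84.3, 124 and 236 CPM in WT RAS of the S6K1 series, and at 74.8, 68.9 and 129 CPM in DKO RAS and 77.7, 83.5 and 188 CPM in WT RAS of the S6K1/S6K2 series. All RAS libraries of both genotypes thus stayed below every EV library of their series, the lowest of which held 483 and 621 CPM. Igfbp7 was at 306, 268 and 374 CPM in KO RAS and 234, 242 and 278 CPM in DKO RAS, within or near the WT RAS ranges of 233 to 354 CPM and 230.3 to 471 CPM. Igfbp4 was at 566, 432 and 204 CPM in KO RAS, a wider spread than in WT RAS, and at 807, 664 and 490.5 CPM in DKO RAS.

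Igfbp2 was at 33.3, 37.2 and 10.4 CPM in KO RAS, where each library exceeded the WT RAS library of the same number, and at 6.24, 3.24 and 12.5 CPM in DKO RAS. Igf1r was at 171, 224 and 218 CPM in KO RAS and 194, 201 and 189 CPM in DKO RAS. Insr was at 66.3, 98.6 and 96.2 CPM in KO RAS and 90.9, 82.8 and 74.3 CPM in DKO RAS. The receptors overlapped with WT RAS in both series. Their intervals were narrower than those of Igfbp5 and Igfbp2. They reached 0.66 for Insr in KO, so changes of that size are not excluded. For Igf1r the 95% confidence interval was -0.18 to 0.45 for KO and -0.48 to 0.40 for DKO, and for Insr it was -0.31 to 0.66 and -0.48 to 0.27. For Igfbp5 it was -0.74 to 1.20 and -1.27 to 0.56, and for Igfbp2, the least precise member, it was -0.62 to 1.66 and -1.34 to 1.92.

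The effects of S6K1 loss and of combined loss were then subtracted from each other. In edgeR's test 0 of the 9 members and 0.0069% of all genes were called. At an unadjusted p under 0.05 there were 0 members, against 178 of 14483 genes. DESeq2 called 0 members, against 1 of all genes. The largest differences among the members were -0.57 ± 0.64 for Igfbp5, 0.55 ± 0.56 for Igf1 and -0.53 ± 0.48 for Igfbp3.

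RAS cells without S6K1, or without both kinases, were also compared with WT EV cells, a contrast that changes vector and genotype together and shares its EV libraries with the comparison of WT cells. In KO RAS against WT EV 4 of 9 members were called (18.1% of all genes): Igfbp5 (log2 fold change -2.06 ± 0.45, adjusted p = 0.0129), Igfbp7 (-0.85 ± 0.19, 0.0152) and Igf1 (-2.44 ± 0.42, 0.00413) were lower and Igfbp4 (1.35 ± 0.37, 0.0344) was higher. The macrophage sum was 3193, 2411 and 641 CPM in WT EV and 861, 676 and 245 CPM in KO RAS, lower in each pair of numbers as Igf1 was, and its part was not tested. Of the 4 called, Igf1 held without any 1 library. Without KO RAS replicate 2 it was the 1 member left, with Igfbp4 at an adjusted p of 0.09994, Igfbp5 at 0.05292 and Igfbp7 at 0.068. Igfbp4 was also lost without WT EV replicate 1 (0.1005), WT EV replicate 2 (0.1176) or KO RAS replicate 1 (0.1138). Its groups overlapped, and by number it differed by 1.99, 1.94 and -0.09 on the log2 scale, so the third pair did not rise. Igfbp6 was called without WT EV replicate 3 (-0.91, adjusted p = 0.03789). With the block, Igfbp6 was called lower as well (-0.66, adjusted p = 0.00215), and 41.1% of all genes were called. In CPM, 3 members did not overlap, against 34.9% of all genes.

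In DKO RAS against WT EV 4 of 9 were called (25.7% of all genes). Igfbp2 (-2.54 ± 0.71, adjusted p = 0.0276), Igfbp5 (-3.23 ± 0.44, 0.00108) and Igf1 (-1.90 ± 0.32, 0.00296) were lower and Insr (0.67 ± 0.17, 0.018) was higher, while Igf1r was at 0.60 ± 0.20 with an adjusted p of 0.0507, and of 0.01119 without WT EV replicate 3. Igfbp5 was at 74.8, 68.9 and 129 CPM in DKO RAS, a level 9.36-fold below WT EV. The macrophage sum was 1406, 159 and 205 CPM in WT EV and 237, 73.6 and 97.7 CPM in DKO RAS, and its part in the Igf1 difference was not tested. Igfbp5 and Igf1 held without any 1 library. Both Igfbp2 and Insr were lost without WT EV replicate 1 (adjusted p = 0.06203 and 0.05011), WT EV replicate 2 (0.06945 and 0.07433), DKO RAS replicate 1 (0.09036 and 0.06175) or DKO RAS replicate 2 (0.09616 and 0.06071). In CPM, 6 members did not overlap, against 43.5% of all genes.

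Of 63 further genes of the IGF pathway, 53 passed the filter. In WT RAS against WT EV, 9 of these were called in the S6K1 series, 5 higher and 4 lower, and 20 in the S6K1/S6K2 series, 12 higher and 8 lower. These were 17.0% and 37.7% of the 53, where 13.2% and 26.3% of all genes were called. The median log2 fold change of the 53 was -0.09 and 0.15, against 0.00184 and -0.02 over all genes. With the replicate block the first count was 19, or 35.8%, where 36.2% of all genes were called. Proteases of binding proteins and their inhibitors held the 3 largest called changes in both series. Stc1, a secreted inhibitor of pappalysins, rose in both series (log2 fold change 4.12 ± 0.43, adjusted p = 0.000471, and 2.11 ± 0.33, adjusted p = 0.00206). Pappa2, a pappalysin that cleaves IGFBP5 and IGFBP3, rose as well (2.12 ± 0.53, adjusted p = 0.0298, and 1.99 ± 0.42, adjusted p = 0.00853), from levels no higher than 1.56 CPM with EV. Adamts1, a metalloprotease of the matrix, fell (-1.93 ± 0.34, adjusted p = 0.0059, and -2.05 ± 0.26, adjusted p = 0.00078). Adam12, a metalloprotease that cleaves IGFBP3 and IGFBP5, fell too (-1.50 ± 0.18, adjusted p = 0.000879, and -1.03 ± 0.28, adjusted p = 0.0255). Pappa, the pappalysin that cleaves IGFBP4, is named after its values were seen, since it missed the threshold. Its 3 WT EV libraries of the S6K1 series held 142, 264 and 234 CPM and its WT RAS libraries 25.4, 37.1 and 97.3 CPM, without overlap. The log2 fold change was -1.999 ± 0.59, with an adjusted p of 0.0566 and of 0.000166 with the block. For the S6K1/S6K2 series it was -0.49 ± 0.52 (adjusted p = 0.510), with overlap.

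Of the 14 receptor adaptors tested, 0 rose and 1 fell in the S6K1 series and 4 rose and 2 fell in the S6K1/S6K2 series. Grb10, an adaptor that restrains both receptors and is linked with mTORC1, was lower with RAS in both (-1.07 ± 0.17, adjusted p = 0.00305, and -0.92 ± 0.13, adjusted p = 0.00132). Irs1 and Irs2, the adaptors that carry the signal to PI3K, had log2 fold changes between -0.11 and 0.47, with adjusted p-values of at least 0.179. In the PI3K, AKT and FoxO branch, 1 of 16 genes rose and 1 fell in the S6K1 series, and 2 rose and 3 fell in the S6K1/S6K2 series. Pik3cb, a catalytic subunit of PI3K, rose in both (0.80 ± 0.22, adjusted p = 0.0406, and 1.96 ± 0.21, adjusted p = 0.000374). Socs1, an inhibitor of cytokine and growth hormone signalling, fell in the S6K1/S6K2 series (-1.83 ± 0.34, adjusted p = 0.0046).

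Igf2, the second ligand, was at 11.8, 30.0 and 74.9 CPM in WT EV and at 10.1, 20.4 and 81.1 CPM in WT RAS of the S6K1 series. The lines differed far more than the vectors (log2 fold change -0.06 ± 0.83, adjusted p = 0.975). Igf2 of the S6K1/S6K2 series was at 24.0, 66.8 and 65.3 CPM in WT EV and at 72.1, 123 and 87.1 CPM in WT RAS, without overlap (0.85 ± 0.44, adjusted p = 0.181). Igf2r, which clears IGF2 and carries lysosomal enzymes, had log2 fold changes of -0.29 ± 0.39 and 0.86 ± 0.36 (adjusted p = 0.685 and 0.105). With the replicate block, the adjusted p of the S6K1/S6K2 series was 0.0163 for Igf2 and 0.0466 for Igf2r. In this series the block also joined DKO to WT libraries by number, though they were not paired by origin.

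With loss of S6K, 0 of the 53 pathway genes were called by edgeR in KO RAS against WT RAS and 0 in DKO RAS against WT RAS. Of all genes, 0.00712% and 0.0216% were called. DESeq2 called 0 pathway genes in both, against 63 and 10 of all genes. At an unadjusted p under 0.05 there were 1 and 0 pathway genes, against 963 of 14036 and 179 of 13881 genes. With the block 1 pathway gene was called in KO RAS against WT RAS, 1.89% of the 53, where 4.15% of all genes were called. It was Inpp5d, a phosphatase of blood cells. Its log2 fold change was -2.04 ± 0.63 without the block, and its adjusted p was 5.33e-05 with it. The macrophage sum was also lower in each KO RAS library than in the WT RAS library of the same number, and its part was not tested.

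Against WT EV, 11 pathway genes were called in KO RAS, 6 higher and 5 lower, and 15 in DKO RAS, 9 higher and 6 lower. These were 20.8% and 28.3% of the 53, where 18.1% and 25.7% of all genes were called. With the block 25 were called in KO RAS, or 47.2%, where 41.1% of all genes were. Stc1 led both at log2 fold changes of 3.86 ± 0.42 and 2.11 ± 0.33. In KO RAS it was followed by Inpp5d (-2.48 ± 0.63, adjusted p = 0.0253), Adamts1 (-1.58 ± 0.34), Adam12 (-1.50 ± 0.18) and Stc2, the paralogue of Stc1 (1.06 ± 0.31, adjusted p = 0.0422). In DKO RAS it was followed by Pappa2 (2.08 ± 0.42), Adamts1 (-1.95 ± 0.26), Socs1 (-1.85 ± 0.34) and Pik3cb (1.71 ± 0.21).

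Among the members, Igf1r and Insr had the most alike patterns over the 18 libraries, with a Pearson r of 0.876 and a Spearman rho of 0.901 for log2 CPM less the mean of the series. Igfbp2 ran opposite to both, with r of -0.775 for Igf1r and -0.778 for Insr, and Igfbp5 and Igf1 had an r of 0.708. The libraries share lines, vector and series, so these are descriptions without a test.

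Among 9706 genes compared over the 18 libraries, the 3 most like each member were found in the same way, and those of 8 members are given. They were Hmcn1 (Pearson r 0.971, Spearman rho 0.942), Pag1 (0.971, 0.903) and Tgfb2 (0.969, 0.903) for Igfbp5, and Scpep1 (0.952, 0.930), Lipa (0.942, 0.953) and Cxcl16 (0.935, 0.917) for Igf1. For the receptors they were Abca5 (0.974, 0.953), Prepl (0.955, 0.843) and Col7a1 (0.951, 0.899) for Igf1r, and Cpeb4 (0.974, 0.975), Myo5a (0.973, 0.940) and Pik3c2a (0.972, 0.963) for Insr. Likeness was lower for Igfbp7 (Cyp1b1 at 0.922, Gpc4 at 0.902 and Slc5a7 at 0.901), and lowest for Igfbp6 (Apool at 0.841, Npepl1 at 0.821 and Asf1b at 0.818). For Igfbp2 they were Ppp2r4 (0.932), Hnrnpa0 (0.918) and Klf2 (0.895), and for Igfbp4 they were Rnf217 (0.931), Pdp1 (0.893) and Gclm (0.873).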

How the data were processed

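RNA-seq of 18 MEF libraries was analysed in 6 groups of 3, taken from the labels. The authors deposited raw read counts per gene for each library in 1 table of 55401 Ensembl identifiers. Its sources differ: the study's methods name TopHat, HTSeq and mm9, while the submitters' processing notes name STAR 2.7.1a, mm10 and DESeq2 1.28.1, so aligner and build are not settled. Libraries were poly(A)-selected and stranded, per the methods. Gene positions are RefSeq's for GRCm38.p6, and exon lengths come from an NCBIM37 annotation. Symbols matched 32589 of the identifiers and 99.1% of counts.

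The 9 members, the pathway list and the marker lists were chosen with earlier results of these data known. Counts were tested in R 4.3.3 with edgeR 4.0.16 (filterByExpr, minimum count 10, TMM, two-sided quasi-likelihood tests with group as the only term). Each series was fitted over its 9 libraries, and the differences between series over all 18. P-values were adjusted by Benjamini-Hochberg over all genes tested, with a threshold of 0.05. CPM were scaled within each series, so levels are compared within a series. Correlations used log2 CPM with a prior count of 2. Of the pathway genes, the text names those called with the 5 largest changes per comparison, and Igf2, Igf2r, Igfbp1, Irs1 and Irs2. Scripts were tested on simulated data. Figures were made with matplotlib 3.10.9.

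Totals of 8319445 to 14402442 counts limit precision for low genes, and floors cover counting error only. Counts of the 18 replicate pairs differed by a chi-square of at least 7.98 per degree of freedom. Per the study's methods, MEFs of several mothers were used, with S6K1 WT and KO cells from littermates, while the labels name no embryo for a library. Deviations from group means were correlated between libraries with the same number: 0.652, 0.420 and 0.645 for WT RAS and WT EV and 0.669, 0.370 and 0.597 for KO RAS and WT RAS in the S6K1 series, and 0.381, 0.304 and 0.302 for WT RAS and WT EV in the S6K1/S6K2 series. WT EV and WT RAS with 1 number are taken as 1 line, from the titles. Alternatives were DESeq2 1.42.0, DESeq2 size factors, no filter, the replicate block, the 6 compared libraries, all 18 libraries, and leaving out each library; the macrophage sum without Lyz2 was added after seeing the data. The genes most like Igfbp3 are not reported here.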

Additional observations from a re-analysis of the deposited data

How the results depend on the processing

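No alternative reversed a member that had passed the test, and the CPM means of the members stayed within the spread between replicates under all alternatives. Of the log2 fold changes, 365 kept direction and side of the threshold under the alternatives that keep all replicates, 17 gained and 7 lost the call, and 7 changed sign; leaving out 1 library gave 466, 7, 28 and 39. The cause was not tested. In the S6K1 series the members called for WT RAS against WT EV were 2, but 4 with DESeq2, without the filter or with all 18 libraries and 5 with the replicate block; the genes called were 1859, and 5085 with the block. For KO RAS against WT RAS, the block called 1 member, and the genes called were 1, but 63 with DESeq2, 108 without the filter, 583 with the block, 0 with the 6 compared libraries and 4 with all 18. For DKO RAS against WT RAS the genes called were 3, but 10 with DESeq2, 11 without the filter, 8 with the block and 7 with all 18 libraries. For KO RAS against WT EV, 2 members were called with all 18 libraries, and the block called 5766 genes against 2542. For the difference of the RAS effects, 1 member was called without the filter, and the genes called were 0, but 143 with DESeq2, 204 without the filter and 58 with the block. DKO libraries with the same number as WT RAS or WT EV were not paired by origin: their correlations were 0.286, 0.425 and -0.0286 with WT RAS and 0.201, 0.293 and -0.105 with WT EV, and 4 of 6 libraries correlated best with their own number. The block called 5 members in DKO RAS against WT EV, where it called 3931 of 13881 genes. In DKO RAS against WT RAS it called 0 members, against 8 of 13881 genes.

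With all libraries kept, 7 values changed sign. Insr in WT RAS against WT EV of the S6K1 series was 0.00422 with DESeq2, 0.00424 with DESeq2 size factors, 0.00821 without the filter, 0.00422 with 6 libraries and 0.0132 with all 18. Igf1r in KO RAS against WT EV was 0.00446 without the filter, and Igfbp2 in the difference of the loss effects was 0.0935 with the replicate block.

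Leaving out 1 library gave 1 to 3 members and 1043 to 1818 genes called for WT RAS against WT EV in the S6K1 series, and 2 to 6 members and 2050 to 4199 genes in the S6K1/S6K2 series. It gave 0 to 22 genes for KO RAS against WT RAS, 1 to 2 genes for DKO RAS against WT RAS, 1 to 5 members and 1325 to 2139 genes for KO RAS against WT EV, 2 to 5 members and 1999 to 4044 genes for DKO RAS against WT EV, and 0 to 1 member and 0 to 290 genes for the difference of the RAS effects. The log2 fold changes that changed sign in these fits, none of them past the threshold with all libraries, ranged as follows. For WT RAS against WT EV they were -0.61 to 0.14 for Igfbp2 and -0.15 to 0.15 for Insr in the S6K1 series, and -0.28 to 0.11 for Igfbp6 and -0.77 to 0.17 for Igfbp7 in the S6K1/S6K2 series. For KO RAS against WT RAS they were -0.11 to 0.74 for Igfbp5. For DKO RAS against WT RAS they were -0.33 to 1.42 for Igfbp2, -0.70 to 0.18 for Igfbp5, -0.19 to 0.23 for Igfbp6, -0.50 to 0.10 for Igfbp7, -0.12 to 0.0302 for Igf1r and -0.24 to 0.0260 for Insr. For KO RAS against WT EV they were -0.0233 to 0.67 for Igfbp2, -0.56 to 0.14 for Igfbp3 and -0.0766 to 0.0837 for Igf1r, and for DKO RAS against WT EV they were -0.97 to 0.18 for Igfbp4 and -0.26 to 0.15 for Igfbp6. For the difference of the RAS effects they were -0.27 to 0.49 for Igf1, and for that of the loss effects they were -0.81 to 0.94 for Igfbp2 and -0.55 to 0.11 for Igfbp4. Depth limits Igfbp2 most, with 18 to 116 counts in WT RAS of the S6K1/S6K2 series.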
